A study of Rattus norvegicus with 10 samples.

Results

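The genes described here carry peptides from the cytosol onto MHC class I molecules. They are the immunoproteasome subunits Psmb8, Psmb9 and Psmb10, the peptide pump Tap1 and Tap2, the loading factors Tapbp and Calr, the class I light chain B2m, the trimming peptidase Erap1 and the class I transcription activator Nlrc5. They were followed in rat liver on one-colour Agilent arrays by every probe whose accession belongs to these 10 symbols. Of the 10 genes, 8 had a probe, 11 probes in all of the 41012 on the array, and B2m had 4 of them. No probe matched Erap1 or Nlrc5, which are not analysed here. All 11 probes were well above background on all 10 arrays and none of their spots was saturated, so every gene with a probe passed the filter on dim probes that left 22991 probes for testing.

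The liver RNA came from male Sprague Dawley rats killed at 24 h. The 3 control rats received the propylene glycol solvent under the skin, the 4 SM rats a single subcutaneous dose of 3.5 mg/kg sulfur mustard, an alkylating vesicant, equal to 0.7 of the dose lethal to 50% of rats, and the 3 SM + MSTF rats the same dose and then, 1 h later, 120 mg/kg MSTF by mouth. MSTF is the mixture of salvianolic acids of Salvia miltiorrhiza and total flavonoids of Anemarrhena asphodeloides. No rats received MSTF without SM, and each array is taken as the liver of 1 rat. On each array 51.9% to 61.4% of the probes were well above background, and arrays of 1 group correlated with r of at least 0.977 over all probes. The 4 SM arrays made up slide 2, whereas slide 1 held the 3 controls with SM + MSTF replicate 3 and slide 3 held SM + MSTF replicates 1 and 2, so that in any comparison with the SM group the treatment and the slide cannot be told apart. Albumin, the defining product of hepatocytes, was between 18.01 and 18.30 on the log2 scale on all 10 arrays.

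Cells show peptides from their own proteins on class I molecules. The proteasome cuts proteins into peptides, and interferon gamma exchanges its constitutive catalytic subunits Psmb6, Psmb7 and Psmb5 for Psmb9, Psmb10 and Psmb8, which favour peptides that fit class I grooves. The Tap1 and Tap2 proteins pump these peptides into the endoplasmic reticulum, where tapasin (Tapbp) and calreticulin (Calr) hold the empty heavy chain and B2m until a peptide binds. In liver, Kupffer cells, endothelial cells and lymphocytes express this machinery strongly, and hepatocytes raise it under interferon.

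Before the values, sequences around the starts of the genes are shown, because most of these genes share an interferon motif there. Whether the motif has a part in the signals given below was not tested. The promoter windows are those of RefSeq on GRCr8, from 250 bases before the start of 1 transcript to 50 after it, and 8 of the 10 genes had a window. The start named here is that transcript's. For B2m, Tapbp, Psmb9 and Psmb8 the annotated gene reaches 94, 81, 48 and 18 bases farther upstream, so that the Tapbp stretch and part of the Psmb8 stretch lie within the gene as annotated. The motifs searched, each on both strands, were a pair of GAAA half-sites 2 bases apart, the core that interferon regulatory factors bind, and GGAAA followed by TCCC 1 base on, a form of the NF-kB site. Capitals mark the matches of these motifs inside the stretches shown, the stretches read 5′ to 3′ along the gene, and a match on the opposite strand reads as its reverse complement. For Psmb10 (chr19:50743293-50743372), Tapbp (chr20:4967878-4967907), Tap2 (chr20:4652297-4652386), Psmb8 (chr20:4657026-4657091) and Tap1 (chr20:4668574-4668673) the gene lies on the minus strand, and for B2m (chr3:129549170-129549235), Psmb9 (chr20:4668850-4668949) and Calr (chr19:40213267-40213366) on the plus strand.
Psmb10: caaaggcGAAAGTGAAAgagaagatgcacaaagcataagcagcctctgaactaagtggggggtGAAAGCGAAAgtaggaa
Tapbp: gaggGAAAATGAAAGTGAAAggaaacagac
Tap2: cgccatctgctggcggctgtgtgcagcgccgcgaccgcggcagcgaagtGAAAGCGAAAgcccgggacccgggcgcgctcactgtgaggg
Psmb8: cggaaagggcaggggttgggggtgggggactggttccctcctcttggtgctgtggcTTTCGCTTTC
Tap1: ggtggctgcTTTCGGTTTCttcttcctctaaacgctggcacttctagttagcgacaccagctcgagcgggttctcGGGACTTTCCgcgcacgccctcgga
B2m: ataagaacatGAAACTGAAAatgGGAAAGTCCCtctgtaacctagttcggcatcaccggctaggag
Psmb9: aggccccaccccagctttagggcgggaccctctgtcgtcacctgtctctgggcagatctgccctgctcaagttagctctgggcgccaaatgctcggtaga
Calr: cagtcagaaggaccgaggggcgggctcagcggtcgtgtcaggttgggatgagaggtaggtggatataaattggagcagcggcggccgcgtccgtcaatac

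The interferon core stood in 6 of these 8 windows (B2m, Tap1, Tap2, Tapbp, Psmb8 and Psmb10), whereas 3.92% of all 33469 windows held it. Psmb10 held it at 73 and 17 bases before the start and Tapbp at 26 and 20 bases, where the pair of matches overlapped. In Psmb8 it began 4 bases before the start and ran across it. The Psmb9 window held no match, but Psmb9 and Tap1 are read in opposite directions from starts with 456 bases between them, and the Tap1 match lies in that shared interval, 336 bases from the Psmb9 start. The NF-kB form stood in the windows of B2m, Tap1 and Tapbp (there 61 bases before the start, outside the stretch shown) and in 0.362% of all windows. Calr held neither, and the interferon gamma element, TTC and GAA 3 bases apart, which 8.87% of windows held, was found in Psmb8 alone of the 8. In these windows matches of different motifs did not overlap. A match is a run of letters and says nothing here about binding.

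Taken as groups, none of the 8 genes was called in any comparison, where a call needed a Benjamini-Hochberg adjusted p under 0.05 by limma over all tested probes and a change of at least 1.5-fold. For SM versus control 2.41% of all probes were called, for SM + MSTF versus control 0% and for SM + MSTF versus SM 1.26%. At an unadjusted p under 0.05, 0 of the 8 genes passed when SM was set against control (16.4% of all probes). When SM + MSTF was set against control 1 passed (9.54%), and against SM 3 passed (15.9%). The limma F-test over the 3 groups passed 0 of 8 genes after adjustment, against 2.07% of all probes, and its unadjusted p was under 0.05 for Psmb8 (0.0129) and Calr (0.0312), as for 17% of all probes. When SM was set against control, 6 of the 8 log2 fold changes were below 0, as were 44.1% of all probes, and their median was -0.26 beside 0.032 for all probes. For SM + MSTF against control 6 were above 0 (50.9% of all probes), with a median of 0.13. For SM + MSTF against SM 7 were above 0 (46.4% of all probes), with a median of 0.39 beside -0.022. The last comparison shares its SM arrays with the first, so these medians are not separate evidence. No gene had SM and control arrays that did not overlap, against 18% of all probes.

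**Figure D1:**
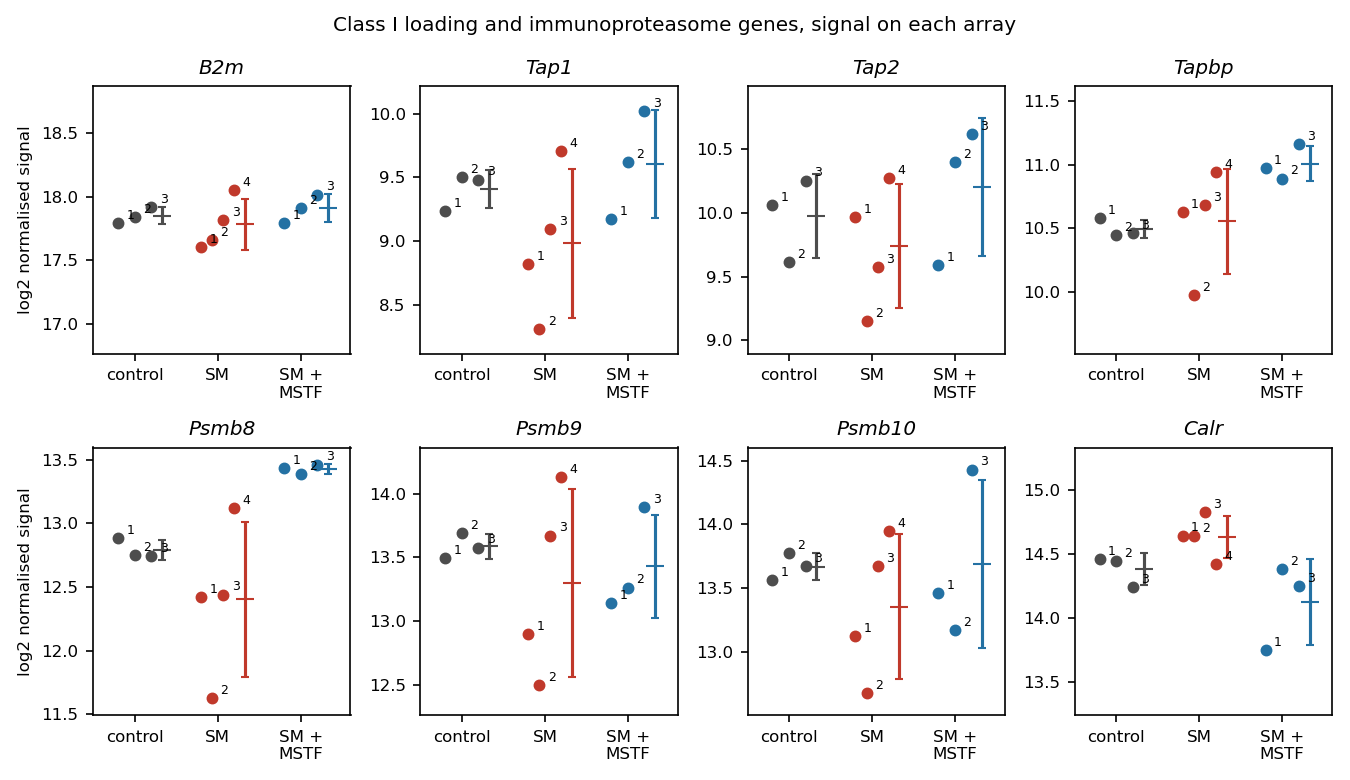
The log2 normalised signal of each gene is plotted on the y axis for the 3 control, 4 SM and 3 SM + MSTF arrays, with the replicate number beside each point and the group mean ± SD beside it; every panel spans the same log2 range. SM replicate 2 lies lowest and SM replicate 4 highest of the SM arrays in 6 of the 8 panels, while the controls lie close together except for Tap2.

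Psmb8 replaces Psmb5 as the chymotrypsin-like subunit of the immunoproteasome. Its log2 signal was 12.88, 12.75 and 12.74 on the control arrays, 12.42, 11.63, 12.44 and 13.12 on the SM arrays and 13.43, 13.39 and 13.46 on the SM + MSTF arrays. All 3 SM + MSTF arrays lay above every other array, and the SM arrays lay on both sides of the controls. The part of haplotype in this placement, raised below for the class I heavy chains, was not tested. Of all probes 5.95% had all SM + MSTF arrays above all SM arrays, and of the 8 genes only Psmb8 did. Compared with SM, the log2 fold change in SM + MSTF was 1.02 (95% interval 0.41 to 1.64), or 2.03-fold, with an unadjusted p of 0.0040 and an adjusted p of 0.123 by limma. Without SM replicate 4 it was 1.26 with an adjusted p of 0.0350, which is a call, and without SM replicate 2 it was 0.77 with an adjusted p of 0.0955. Compared with control, the SM + MSTF difference was 0.63 (-0.02 to 1.29), with an adjusted p of 0.534, and on slide 1, where SM + MSTF replicate 3 met the 3 controls, it was 0.67. The SM difference from control was -0.39 with a standard error of 0.27, and it ran from -0.63 without SM replicate 4 to -0.13 without SM replicate 2.

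Psmb9 and Psmb10 replace Psmb6 and Psmb7 in the same particle. Psmb9 had a log2 signal of 13.50, 13.69 and 13.58 on the control arrays, 12.90, 12.50, 13.67 and 14.13 on the SM arrays and 13.14, 13.26 and 13.89 on the SM + MSTF arrays. Psmb10 had 13.56, 13.78 and 13.67, then 13.12, 12.68, 13.68 and 13.95, then 13.46, 13.17 and 14.43. In both genes the 3 groups overlapped, and SM replicates 1 and 2 and SM + MSTF replicates 1 and 2 lay below all 3 controls. The SM arrays spanned 1.63 on the log2 scale for Psmb9 and 1.27 for Psmb10. Psmb9 in SM versus control differed by -0.29 (-1.08 to 0.51) and in SM + MSTF versus SM by 0.13 (-0.66 to 0.93), and the latter was -0.14 without SM replicate 2. Psmb10 differed by -0.31 (-1.08 to 0.46) and by 0.33 (-0.44 to 1.10), and the latter was -0.038 without SM + MSTF replicate 3. Without SM replicate 4 the SM differences from control were -0.56 and -0.51, and without SM replicate 2 they were -0.020 and -0.089. Of the immunoproteasome subunits, Psmb8 was thus the one that stood higher on all 3 SM + MSTF arrays.

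Because the exchange of subunits is a matter of proportion, each immunoproteasome gene was also set against its constitutive counterpart within each array, and the control mean was taken as 0. The constitutive subunits varied less. Psmb5 ranged from 13.70 to 14.04, Psmb6 from 11.91 to 12.08 and Psmb7 from 11.91 to 12.28 over the 10 arrays. None of them was called. In SM versus control 2 passed an unadjusted p under 0.05 by limma with positive differences, beside 16.4% of all probes in either direction. The log2 ratio of Psmb8 to Psmb5 was -0.65, -1.44, -0.62 and 0.17 in the SM rats and 0.59, 0.58 and 0.62 in the SM + MSTF rats. The SM + MSTF ratios lay above all others. SM + MSTF exceeded SM by 1.23 and control by 0.60, each at the smallest p an exact permutation test of these group sizes can give, 0.0571 and 0.10 (two-sided), and 0.45 for both after adjustment over the 9 ratio comparisons. The Psmb9 to Psmb6 ratio was -0.73, -1.11, 0.02 and 0.62 in SM and -0.55, -0.35 and 0.22 in SM + MSTF, and the groups overlapped. The Psmb10 to Psmb7 ratio was -0.88, -1.28, -0.24 and 0.11 in SM and -0.43, -0.73 and 0.53 in SM + MSTF, again with overlap. The other 7 exact tests gave p between 0.229 and 0.914.

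**Figure D2:**
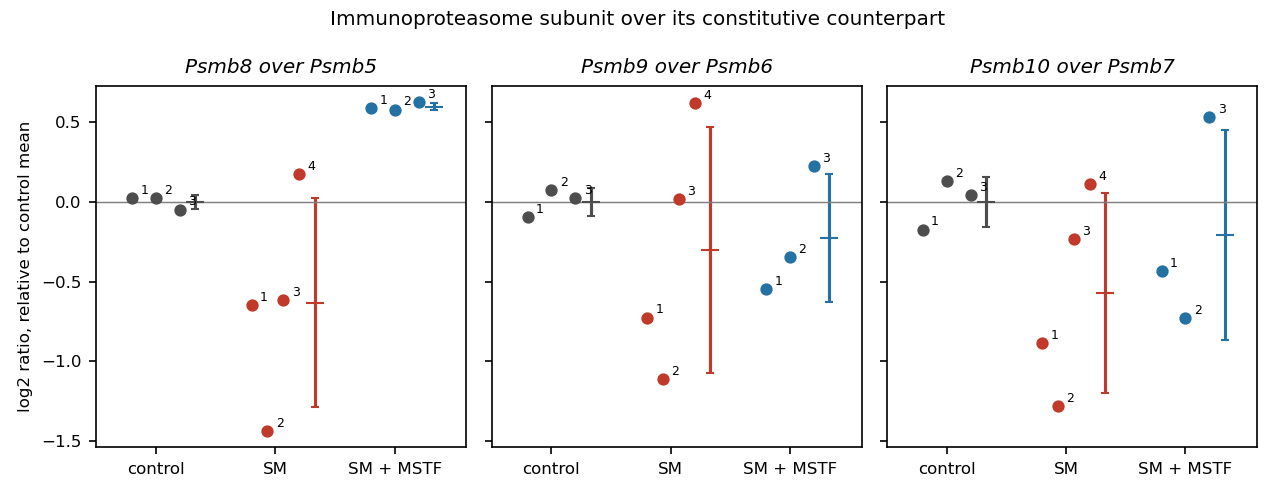
The y axis gives the log2 ratio of an immunoproteasome subunit to its constitutive counterpart on each array, relative to the control mean, with replicate numbers and the group mean ± SD. Psmb8 over Psmb5 lies between 0.58 and 0.62 on the SM + MSTF arrays and spreads from -1.44 to 0.17 on the SM arrays.

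The peptide pump followed the same rats. Tap1 had a log2 signal of 9.23, 9.50 and 9.48 in control, 8.82, 8.31, 9.10 and 9.71 in SM and 9.17, 9.62 and 10.02 in SM + MSTF. Of the SM arrays 3 lay below all controls and the fourth above them. The SM difference from control was -0.42 (-1.10 to 0.25) and the SM + MSTF difference from SM 0.62 (-0.06 to 1.30), with adjusted p of 0.541 and 0.345 by limma. Without SM replicate 4 these were -0.67 and 0.86, and without SM replicate 2 they were -0.20 and 0.40. Tap2, its partner in the pump, had 10.06, 9.62 and 10.26 in control, 9.97, 9.15, 9.58 and 10.27 in SM and 9.59, 10.40 and 10.62 in SM + MSTF. Its controls alone spanned 0.64 on the log2 scale, and all groups overlapped. Its differences were -0.23 (-0.93 to 0.46) for SM versus control and 0.46 (-0.24 to 1.16) for SM + MSTF versus SM. The first ran from -0.42 without control replicate 2 to -0.037 without SM replicate 2, and the second from 0.25 without SM + MSTF replicate 3 to 0.77 without SM + MSTF replicate 1.

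Tapasin bridges the pump and the empty class I heavy chain. Tapbp had a log2 signal of 10.58, 10.44 and 10.46 in control, 10.63, 9.97, 10.68 and 10.94 in SM and 10.97, 10.89 and 11.16 in SM + MSTF. The SM + MSTF arrays lay above all 3 controls, but SM replicate 4 reached into their range. Compared with control the SM + MSTF difference was 0.51 (0.04 to 0.99), with an unadjusted p of 0.0369 and an adjusted p of 0.494 by limma, and 0.67 on slide 1. Groups placed this way, with SM + MSTF wholly above control, were found for Tapbp and Psmb8 among the 8 genes and for 8.03% of all probes. Compared with SM the difference was 0.45 (0.01 to 0.89), adjusted p = 0.307, and 0.26 without SM replicate 2. The SM difference from control, 0.062, was -0.067 without SM replicate 4.

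B2m is the light chain shared by all class I molecules. Its brightest probe gave 17.80, 17.84 and 17.92 in control, 17.61, 17.66, 17.82 and 18.05 in SM and 17.80, 17.91 and 18.02 in SM + MSTF. The differences were -0.068 (-0.34 to 0.20) for SM versus control and 0.12 (-0.15 to 0.39) for SM + MSTF versus SM, all within the spread between rats. The other 3 B2m probes gave -0.15 to -0.20 for SM versus control and 0.17 to 0.34 for SM + MSTF versus SM, of the same sign. All 4 probes had SM replicate 1 lowest and SM replicate 4 highest of the SM arrays.

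Calr, the lectin chaperone of newly made glycoproteins, did not follow the others. It had a log2 signal of 14.46, 14.45 and 14.24 in control, 14.65, 14.64, 14.83 and 14.42 in SM and 13.74, 14.38 and 14.25 in SM + MSTF. All SM + MSTF arrays lay below all SM arrays, a placement that 8.73% of all probes shared. The difference was -0.51 (-0.87 to -0.15), with an unadjusted p of 0.0103 and an adjusted p of 0.179 by limma, and -0.32 without SM + MSTF replicate 1. Compared with control, SM differed by 0.25 (-0.11 to 0.61) and SM + MSTF by -0.26 (-0.64 to 0.13). SM replicate 4, the highest SM array for the other 7 genes, was the lowest for Calr.

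**Figure D3:**
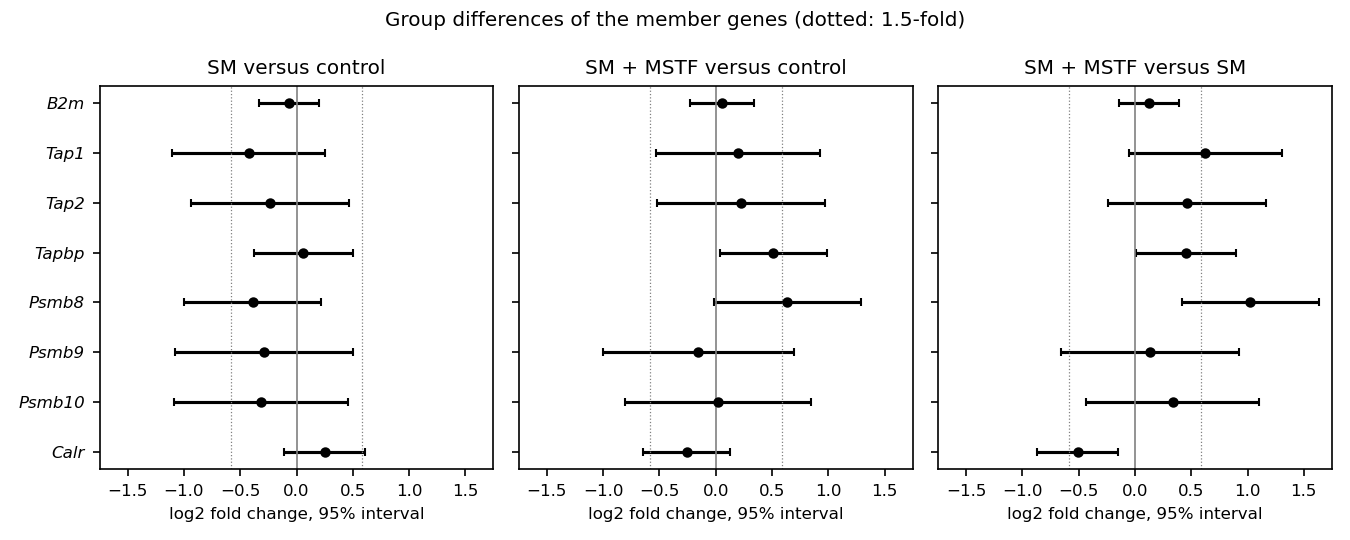
Each point is the log2 fold change of a gene on the x axis with its 95% interval by limma, one panel per comparison, and the dotted lines mark 1.5-fold. In SM + MSTF versus SM the interval of Psmb8 runs from 0.41 to 1.64 and that of Calr from -0.87 to -0.15, and neither difference passed the adjusted test.

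For 7 of the 8 genes, all but Calr, the range between the SM rats exceeded each difference between group means. The SD in the SM group exceeded the SD in control for all 8 genes, as it did for 59.3% of all probes, and for Tap1, Psmb8, Psmb9 and Psmb10 it was higher than for 94.8% to 97.4% of all probes. In the SM group Psmb9 had an SD of 0.74 against 0.10 in control, Psmb8 0.61 against 0.08 and Tap1 0.58 against 0.15. B2m by its brightest probe (0.20 against 0.06) and Calr (0.17 against 0.12) varied less. The dimmer B2m probes had an SD of 0.25, 0.32 and 0.33 in SM against 0.03, 0.12 and 0.07 in control. SM replicate 2 was lowest and SM replicate 4 highest of the SM arrays for 6 of the 8 genes, an order that 10.4% of all probes shared. These arrays lay on the same slide, with 61.4% and 58.9% of probes well above background, respectively. In the SM + MSTF group, replicate 3 was highest for 7 of the 8 genes, and it was the array on slide 1.

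The genes other than Calr varied together across rats. The mean centred log2 signal of the 8 genes was 0.01, 0.01 and 0.05 in control, -0.23, -0.68, -0.02 and 0.33 in SM and -0.08, 0.13 and 0.48 in SM + MSTF. Over the 10 arrays the 21 pairs without Calr had Pearson r from 0.577 to 0.909, with a median of 0.705. Of these pairs 10 passed a permutation test of r after adjustment over all 28 pairs, and 8 passed by Spearman's rho. The permutations ran over all 10 arrays without regard to group or slide. Their p-values therefore do not separate shifts between groups or slides from variation between rats. The tightest were Psmb9 with Psmb10 (r = 0.909, adjusted p = 0.0063; rho = 0.976, adjusted p = 0.00084), Tapbp with Psmb8 (r = 0.899, adjusted p = 0.00784; rho = 0.794, adjusted p = 0.0427) and B2m with Tap1 (r = 0.895, adjusted p = 0.0063; rho = 0.891, adjusted p = 0.0136), by permutation tests over the 10 arrays. Without the 2 arrays farthest from the median of the first gene, r was 0.787, 0.717 and 0.957 for these pairs. Other pairs rested on such arrays, since r without them ranged from -0.156 for Tap2 with Psmb10 to 0.957. As deviations from the group means, the same 21 pairs had r from 0.539 to 0.950, and as deviations from the slide means from 0.535 to 0.966. The 7 pairs with Calr had r from -0.683 to -0.0906, and none passed. The closest neighbours on chromosome 20, Tap1 and Psmb9, share the interval described above. By the same permutation tests they had r of 0.849 (adjusted p = 0.0105) and rho of 0.782 (adjusted p = 0.0427), and r was 0.671 without the 2 farthest arrays. This r was not particular to neighbours. Pairs on different chromosomes, Calr left out, had r from 0.593 (Tap2 with Psmb10) to 0.909 (Psmb9 with Psmb10).

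Of 9181 other genes, the 5 whose signal followed the mean of the 8 most closely over the 10 arrays were Klrk1 (r = 0.979), an activating receptor of natural killer cells, Fbxw17 (0.973), Ripk3 (0.973), a kinase of necroptosis, Oasl2 (0.969), an interferon-induced oligoadenylate synthetase-like gene, and Siglec1 (0.968), a sialic acid receptor of macrophages. These values describe likeness over arrays that share their slides and no test was made on them. An r of at least 0.9 was reached by 1.32% of the 9181 genes and by 12 of the 22 interferon-stimulated genes measured. Klrk1 had a log2 signal of 5.43, 4.63, 5.89 and 6.63 in SM and 5.77, 6.35 and 7.22 in SM + MSTF, the order of rats seen in Tap1.

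Among the SM and SM + MSTF rats the mean of the interferon-stimulated genes had the same order as that of the 8 genes, with a wider range. The controls did not keep their place: the mean centred log2 signal was -0.17, 0.54 and 0.45 there, beside 0.01, 0.01 and 0.05 for the 8 genes. None of the 22 was called in any comparison. Their log2 fold changes were below 0 in all 22 for SM versus control, with a median of -0.60, and above 0 in all 22 for SM + MSTF versus SM, with a median of 0.78, beside 0.032 and -0.022 for all probes. Of all probes 44.1% were below 0 in the first comparison and 46.4% above 0 in the second. At an unadjusted p under 0.05 by limma, 0 of 22 passed in either, beside 16.4% and 15.9% of all probes. Cxcl10, a chemokine for activated T cells, had the most negative SM value of the list (-1.82, adjusted p = 0.373), and Ifi35 the least negative (-0.13). Of the 22 genes 20 were lowest on SM replicate 2 and 20 highest on SM + MSTF replicate 3. Cxcl10 had a log2 signal of 10.42, 11.46 and 10.94 in control, 8.55, 6.82, 9.91 and 11.20 in SM and 9.96, 10.14 and 12.12 in SM + MSTF. Of the transcription factors that act on class I promoters, Irf1, which binds the interferon core, differed by -0.36 in SM versus control (adjusted p = 0.262), and Rfx5 was not well above background often enough to be tested. None of the 13 factors tested was called, nor any of the 6 tested genes of interferon gamma signalling, in which Ifng itself did not pass the filter on dim probes.

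**Figure D4:**
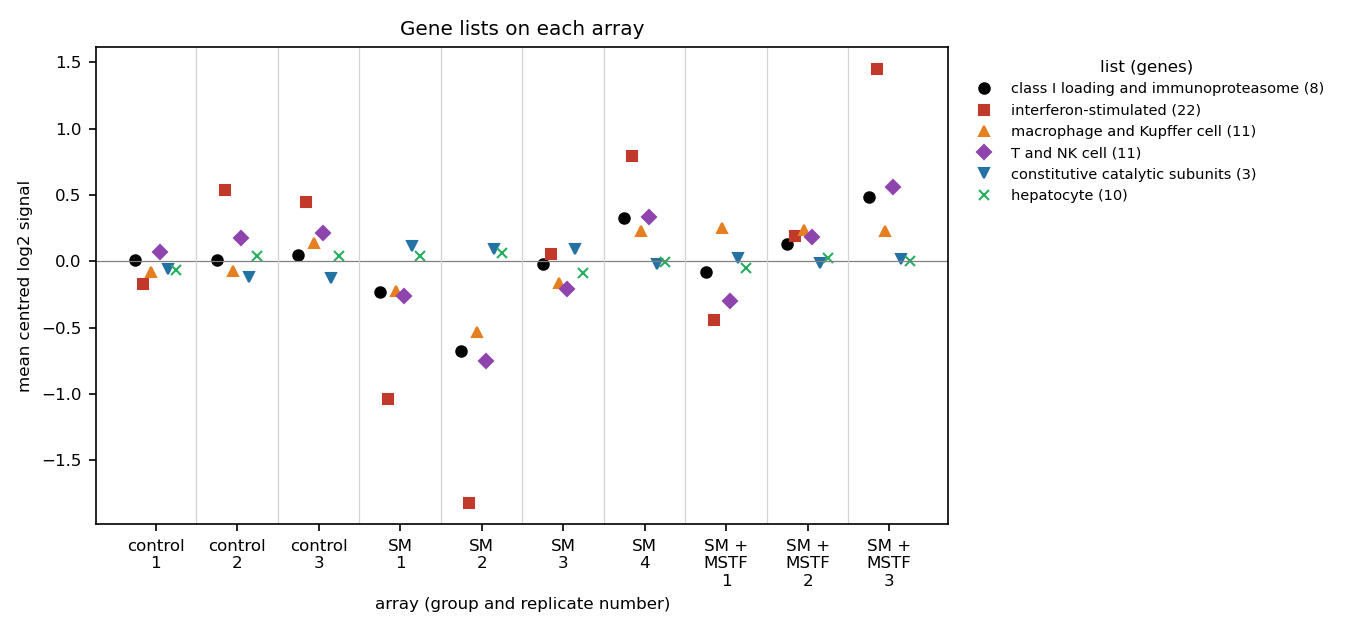
The y axis gives the mean centred log2 signal of each gene list on each of the 10 arrays on the x axis, with the number of genes in the legend. The class I genes (8) run from -0.68 on SM replicate 2 to 0.48 on SM + MSTF replicate 3, the interferon-stimulated genes (22) from -1.82 to 1.45 on the same arrays, and the hepatocyte list (10) stays between -0.09 and 0.06.

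The rest of the proteasome varied over a narrower range. The proteasome activators Psme1 and Psme2, which interferon also induces, had r of 0.955 and 0.956 to the mean of the 8 genes. The 11 other core subunits had r from 0.167 (Psmb4) to 0.715 (Psmb2), with a median of 0.474, and the assembly factor Psmg4 had 0.636. Of these 11 core subunits 7 were highest on SM + MSTF replicate 3 and 4 lowest on SM replicate 2, but their mean centred log2 signal ran only from -0.12 to 0.15 over the 10 arrays, on those same arrays. Psme2, whose window held the interferon core 53 bases before its start, had 13.01, 12.73, 13.17 and 13.47 in SM and differed from control by -0.13 (adjusted p = 0.772), and Psme1 by -0.074 (0.852). None of the 3 constitutive catalytic subunits, the 11 other core subunits or the 16 subunits of the regulatory cap was called in any comparison, and their median log2 fold changes in SM versus control were 0.24, -0.0053 and 0.087. The most negative and most positive values in SM were -0.26 (Psma2) and 0.18 (Psmb3) in the core and -0.34 (Psmd6) and 0.27 (Psmd7) in the cap. Of the activators and assembly factors, 0 of 7 were called, and they ran from -0.17 (Psmg4) to 0.26 (Psme4).

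The folding and trimming partners in the endoplasmic reticulum and cytosol likewise gave no calls. Of the 8 other chaperones of class I folding, Hsp90b1 had the most positive value in SM versus control (0.48, adjusted p = 0.232) and Tapbpl, the tapasin-like editor, the most negative (-0.074). Pdia3, which pairs with tapasin, differed by 0.24 in SM and 0.13 in SM + MSTF, and Canx, the membrane-bound relative of calreticulin, by 0.081 and -0.12, with adjusted p of at least 0.631. In SM + MSTF versus SM, 7 of these 8 chaperones were below 0 (median -0.17), the side on which Calr lay. Of all probes 46.4% were above 0 there. The array of SM + MSTF replicate 1, lowest for 5 of the 8, had a mean centred log2 signal of -0.34, whereas replicates 2 and 3 had 0.080 and 0.043, within the range of the SM arrays (0.0065 to 0.26). Of the 6 other trimming peptidases, Tpp2 had 0.26 and Lap3 -0.0087 in SM versus control.

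Class I heavy chains, which B2m and the loading complex serve, had r from 0.0255 (RT1-CE10) to 0.955 (RT1-S3) to the mean of the 8 genes, with a median of 0.709. Of the 18 heavy chain genes tested, 16 were below 0 in SM versus control (median -0.17), beside 44.1% of all probes, and 0 were called. RT1-M5 had the most positive value (0.31). RT1-A3, well above background on 1 SM and 1 control array, is given no difference. It is nevertheless among the 16 and enters the median, where its part rests largely on values at background. In SM + MSTF versus SM, RT1-CE16 (1.68, adjusted p = 0.0273) and RT1-CE3 (1.57, adjusted p = 0.0371) were called higher, where 0.322% of all probes were. RT1-CE16 had 12.77, 11.60, 12.20 and 12.66 in SM and 13.85, 13.97 and 14.14 in SM + MSTF. All SM + MSTF arrays thus lay above all SM arrays, as for 5.95% of all probes. A second probe of RT1-CE4 was called too (1.77, adjusted p = 0.0247), whereas its brighter probe was not. RT1-A3, by contrast, was well above background on control replicate 1 (7.54), SM replicate 1 (6.99) and all 3 SM + MSTF arrays (7.23 to 8.11) and not well above background on the other 5, where it read 2.02 to 3.55. RT1-CE10 was well above background on 8 arrays, at 8.29 to 10.18, and not on SM + MSTF replicates 1 and 2 (3.62 and 2.20). The brighter probe of RT1-A2, a classical class I gene, gave 0.97 in SM + MSTF versus control and its other probe -0.89. The RT1 genes are near-identical copies that differ between haplotypes, so which copy a probe reports is uncertain, and the calls of RT1-CE16 and RT1-CE3 are to be read beside the values of RT1-A3: RT1-CE16 had 13.23 on control replicate 1 and 12.42 and 12.40 on the other controls. The part of haplotype in these differences, or in those of Psmb8 and Tapbp on chromosome 20, was not tested. Of the class I-like genes, Procr had -0.48 and Hfe 0.014 in SM versus control, with 0 of 5 called.

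**Figure D5:**
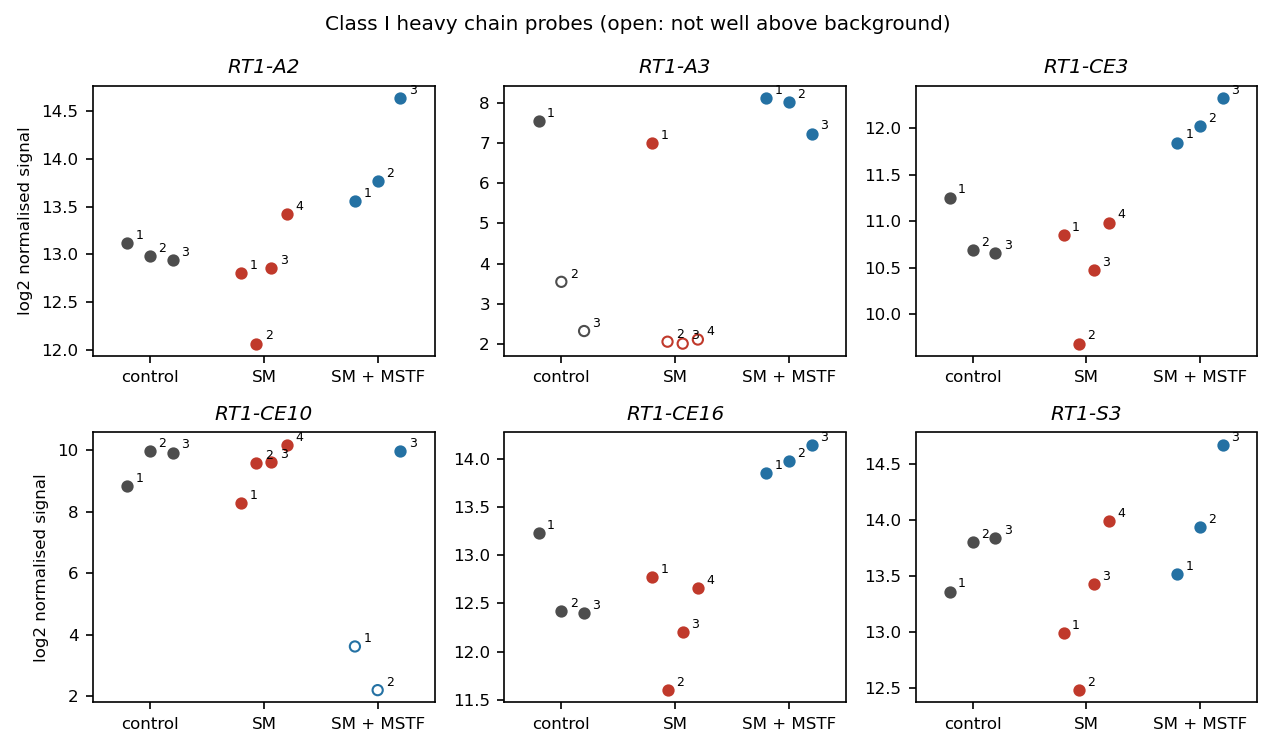
The log2 normalised signal of 6 class I heavy chain probes is plotted on the y axis by group, with replicate numbers, and open circles mark arrays on which a probe was not well above background. RT1-A3 is open on 5 arrays and RT1-CE10 on 2, while RT1-CE3 and RT1-CE16 lie higher on the 3 SM + MSTF arrays than on all others.

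Some markers of the cells that express this machinery followed the same rats and others did not. In bulk liver, fewer cells of a type and less RNA per cell cannot be told apart. The 11 macrophage and Kupffer cell markers tested had values below 0 in all 11 when SM was set against control (median -0.096). The share of all probes below 0 there was 44.1%. All 11 were above 0 when SM + MSTF was set against control (median 0.25) or against SM (median 0.37), beside 50.9% and 46.4% of all probes. None of the 11 was called. In SM + MSTF versus SM 4 passed an unadjusted p under 0.05 by limma, beside 15.9% of all probes. Their summed signal was 113000 to 144000 signal units in control, 74600 to 139000 in SM and 120000 to 150000 in SM + MSTF. Cd68 had 12.32, 11.90, 12.50 and 13.18 in SM. The r of this list to the mean of the 8 genes ran from -0.0202 for Mrc1 to 0.961 for Cd68, with a median of 0.767. Of the 11 T and NK cell markers tested, 10 were below 0 in SM versus control and 2 were called lower, Klrc2 (-0.92, adjusted p = 0.0254) and Klrd1, where 1.43% of all probes were. Klrd1, a receptor that reads class I molecules, was well above background on 2 of the 4 SM arrays and on all others, so that its differences, -1.22 for SM against control (adjusted p = 0.0277) and 1.15 for SM + MSTF against SM (adjusted p = 0.0455), rest in part on values at background. Cd8b, a chain of the T cell coreceptor, lay the other way, at 0.60 from control to SM (adjusted p = 0.0810 by limma). When SM + MSTF was set against SM it was -0.58 (adjusted p = 0.123 by limma). Every SM array lay above every control and SM + MSTF array. Of all probes 18% had SM and control arrays without overlap in either direction, and 8.73% had all SM + MSTF arrays below all SM arrays. Cd8b was dim, with mean log2 signals of 5.54 in control, 6.14 in SM and 5.56 in SM + MSTF. The r of this list ran from 0.0409 for Cd8b to 0.933 for Gzma, with a median of 0.795. The summed signal of this list was 2460 to 2690 signal units in control, 1430 to 3680 in SM and 1950 to 4290 in SM + MSTF. Cd3e did not pass the filter. Ptprc, the pan-leukocyte antigen, differed by -0.26 in SM (adjusted p = 0.630) and had r of 0.925, the highest of the 5 pan-leukocyte markers, where the lowest was -0.154 for Cd37. Pecam1 of endothelium (-0.0096) had r of -0.0255, and the 6 endothelial markers ran from -0.308 for Flt1 to 0.729 for Lyve1. Alb of hepatocytes (-0.099) had r of 0.0241, and the 10 hepatocyte markers ran from -0.615 for Cps1 to 0.776 for Tf. Of the MHC class II genes, 5 of 6 were below 0 in SM versus control (median -0.64), led by Cd74 (-0.70, adjusted p = 0.0810). Of these 6, 4 passed an unadjusted p under 0.05 by limma, beside 16.4% of all probes, but none was called. Of the B cell list 2 of 7 genes were tested, Cd79b and Cd22 (0.22 in SM versus control). Cd79b was dim, with mean log2 signals of 6.36 in control, 4.18 in SM and 4.98 in SM + MSTF. Its SM difference from control, -2.18 (adjusted p = 0.125 by limma), may thus rest in part on values near background. The neutrophil (2 genes tested), erythroid (5), endothelial (6), stellate cell (7), pan-leukocyte (5) and hepatocyte (10) lists held no call in any comparison. The part of these cells in the spread of the class I genes was not tested.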

How the data were processed

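The deposited files hold scanner output of one-colour 4 x 44K Agilent rat arrays, extracted by the authors with Feature Extraction 10.7 on a grid of build rn4, and a value table that the authors deposited as log2 values after quantile normalization. The deposited background-subtracted intensity was quantile-normalized here and its log2 taken. Spots flagged as non-uniform were left out, spots of a probe were averaged, and 22991 of 41012 probes, which in 1 or more groups were well above background throughout, were tested. Accessions named 17512 probes, covering 9190 tested genes. A gene was represented by its brightest tested probe. The 10 arrays entered 1 limma 3.58.1 fit (R 4.3.3) with 3 groups, and p-values were adjusted over all tested probes. Correlations used 100000 permutations, and ratios exact permutation tests (SciPy 1.17.1). The number of arrays limits the precision. Genes named are the 8 measured members, fixed partners and markers, list genes called or lying at the extremes in SM versus control, and the 5 genes most like the members. RT1-A3, RT1-CE10, RT1-CE4, Cd8b, Klrk1's values, Ifng and the genes given for their r within a list were chosen after their values were seen. A gene that this rule names is not reported here. The members and lists were chosen with earlier results of these data known. The fits were tested on simulated data with independent noise and no slide effect. The planted changes were larger than any group difference of the 8 members, so the simulation says nothing about power for those.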

Additional observations from a re-analysis of the deposited data

How the results depend on the processing

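The counts of class I genes called were 0 in each comparison under the alternatives run, other than these: the methods' t-test without adjustment called 1 gene (Psmb8) in SM + MSTF versus control and 1 (Psmb8, p by that test 0.0367) in SM + MSTF versus SM, one-way ANOVA without adjustment passed 1, and leaving out 1 array gave 0 to 1 in SM + MSTF versus SM (1 without SM replicate 4) and 0 to 0 in the others. After adjustment both tests passed 0. Leaving out 1 array moved the medians from -0.46 (without SM replicate 4) to -0.032 (without SM replicate 2) in SM versus control, from -0.0035 (without SM + MSTF replicate 3) to 0.27 in SM + MSTF versus control and from 0.16 (without SM + MSTF replicate 3) to 0.56 (without SM replicate 4) in SM + MSTF versus SM. A fixed block for the slide sets only SM + MSTF replicate 3 against the controls, and with it the median of SM + MSTF versus control was 0.63 and Psmb9 was 0.31 in place of -0.16. This block could not be fitted for comparisons with SM. Directions turned in SM + MSTF versus control without SM + MSTF replicate 3 for Tap1 (-0.0087, of a range to 0.41) and Psmb10 (-0.35, to 0.28), and for Psmb10 without control replicate 1 (-0.034). In SM + MSTF versus SM they turned for Psmb9 (-0.14 to 0.41) without SM replicate 1 (-0.00097), SM replicate 2 (-0.14) or SM + MSTF replicate 3 (-0.099) and for Psmb10 (-0.038 to 0.59) without SM + MSTF replicate 3 (-0.038). In SM versus control Tapbp (-0.067 to 0.26) turned without SM replicate 4 (-0.067). The causes were not tested. The deviations of same-numbered arrays of different groups had r from -0.0702 to 0.122 (mean 0.0447). Those of differently numbered arrays had r from -0.168 to 0.125 (mean -0.0225). These ranges overlap, so they do not show that the numbers are a pairing, and with so few arrays they cannot exclude it. With a replicate block on replicates 1 to 3, which leaves out SM replicate 4, Tapbp in SM versus control was -0.067, Psmb8 in SM + MSTF versus SM was 1.26 (adjusted p = 0.0577) and no class I gene was called. Over all probes the 553 calls of SM versus control became 226 with normexp background correction, 342 without a filter, 336 with probes well above background on all arrays, 85 with the slide as a random block, 64 with the replicate block, 320 with the methods' t-test after adjustment and 1131 before it, and from 65, when control replicate 2 was left out, to 717, when SM + MSTF replicate 3 was. The 290 calls of SM + MSTF versus SM became 60, 269, 140, 102, 101, 13 and 863 in the same order, 155 with only those groups in the fit, and 98 to 301. The 0 calls of SM + MSTF versus control became 183 with the fixed slide block, 285 with the t-test before adjustment and 247 without SM + MSTF replicate 3.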
